A study of Mus musculus with 9 samples.

Results

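The genes described here are the 10 mouse genes H2-Aa, H2-Ab1, H2-Eb1, H2-DMa, H2-DMb1, H2-DMb2, H2-Oa, H2-Ob, Cd74 and Ciita, which build, load and switch on the MHC class II presentation pathway. They were picked by gene symbol, with earlier results of these data known. All 10 were found among the 29995 gene symbols of the deposited expression table without immunoglobulin (Ig) genes, and all 10 passed the filter on low values that left 12892 genes for testing. RNA was sequenced from 9 libraries, 3 from each of 3 sorted splenic populations of mice aged 12 weeks, to compare B cells with plasma cells formed early in an antibody response. Every mouse carried 1 Blimp1 allele that reports as green fluorescent protein (B6.Blimp1GFP/+), and every mouse had received 50 µg of NP-LPS, a hapten joined to lipopolysaccharide, into the peritoneum 4 days before the spleen was taken, so that even the naive cells came from immunized animals. Naive B cells were sorted as B220+ IgDhigh cells that did not bind NP. NP-binding B cells were B220+ and bound NP, and lacked IgD, CD138 and the Blimp1 reporter. Plasma cells bound NP, expressed CD138 and the reporter, lacked IgD, and had B220 at any level. Cells bearing CD4, CD8a, Ter-119 or F4-80 were gated away. The study sorted its cells from 3 mice, but the sources used here do not tie a library number to a mouse.

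A class II molecule is a pair of membrane chains that carries peptides from the endosome to the cell surface, where CD4 T cells read them. In the mouse, H2-Aa and H2-Ab1 encode the α and β chains of I-A, and H2-Eb1 encodes the β chain of I-E, whose α chain gene is defective in the C57BL/6 background. Cd74 encodes the invariant chain, which fills the groove of a new class II molecule and steers it to the endosome. H2-DMa pairs with a product of H2-DMb1 or H2-DMb2 to form H2-DM, which exchanges the invariant chain remnant for peptide, and H2-Oa with H2-Ob forms H2-O, an inhibitor of H2-DM found mainly in B cells. Ciita encodes the class II transactivator, a coactivator that does not bind DNA itself but docks on factors at class II promoters. Resting B cells are professional presenting cells, and plasma cells are known for having given up much of this machinery while they turn to secretion.

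The libraries held 20189900 to 38602300 estimated reads outside the Ig genes. Levels are in TPM, a transcript abundance that accounts for transcript length and library total, and the table with Ig genes left out was rescaled by the authors. In the table that keeps Ig genes the same transcripts of plasma cells were 3.33 to 3.597-fold lower, against 1.07-fold in naive B cells and 1.11 to 1.13-fold in NP-binding B cells, because Ig transcripts take their share of the total. The summed TPM of 7 B cell markers was 9077 to 9531 in naive B cells, 6198 to 6803 in NP-binding B cells and 1468 to 1543 in plasma cells, while 7 plasma cell markers, taken from the table that keeps Ig genes because it lists Igj, summed to 16086 to 18350 in plasma cells against at most 722 elsewhere. Most of that plasma cell sum was Igj, at 16469, 14196 and 16488 TPM. Prdm1 and Sdc1, which encodes CD138, are also in the list and were used for the sort itself. Plasma cell replicate 3 stood apart. Its 5 liver markers summed to 4566 TPM against 27.0 and 22.3 in replicates 1 and 2, and its 8 macrophage markers to 126 against 35.2 and 46.8, with Lyz2 at 48.2 and C1qb at 15.9 TPM. The calls and ratios of plasma cells were therefore also computed without it.

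The class II genes were lower in NP-binding B cells than in naive B cells and far lower in plasma cells, and the fall was uneven. Together the 10 genes made up 6.11% ± 0.311 (SD, n = 3) of the summed TPM in naive B cells, 3.68% ± 0.0661 in NP-binding B cells and 0.712% ± 0.0431 in plasma cells. In plasma cells the share of the naive mean that was left ranged from 17.4% ± 1.20 for Cd74 down to 0.281% ± 0.0926 for Ciita and 0.169% ± 0.263 for H2-Oa. In bulk RNA, fewer cells that express a gene and less RNA of that gene per cell cannot be told apart. A gene was called where limma gave a Benjamini-Hochberg adjusted p under 0.05 and a fold change over 2.

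**Figure D1:**
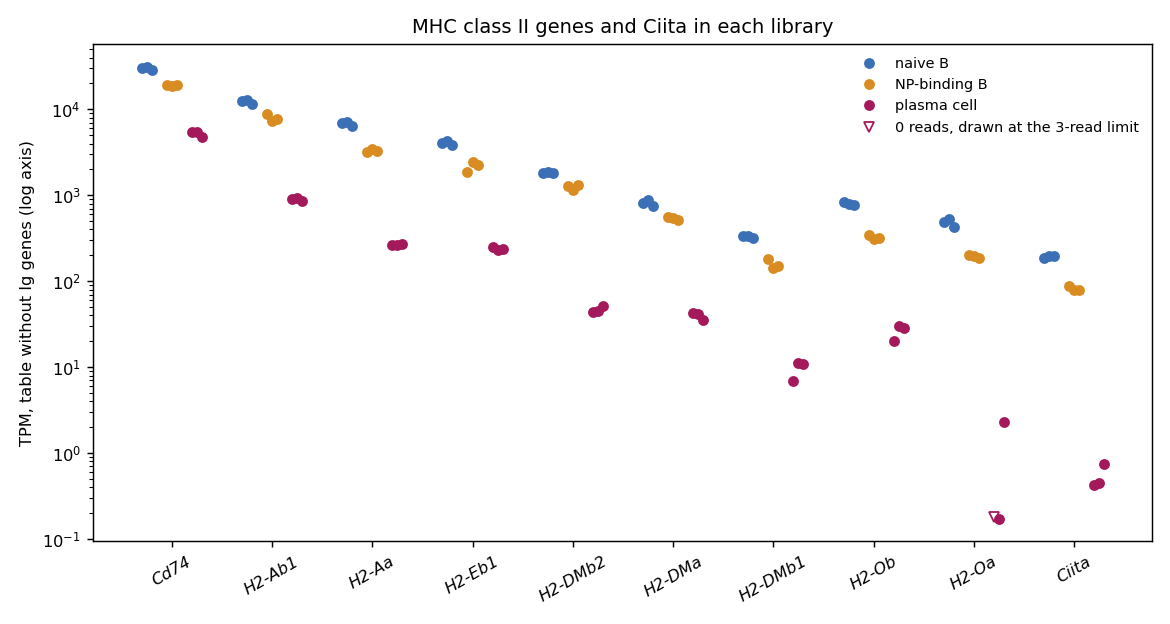
Level of each gene in each library, in TPM of the table without Ig genes on a log axis; every point is a library, coloured by population, and the open triangle is a library with 0 reads drawn at its limit of 3 reads. For every gene the 3 naive libraries sit above the 3 NP-binding libraries, which sit above the 3 plasma cell libraries; H2-Oa and Ciita drop the farthest, to at most 2.27 and 0.747 TPM.

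Between NP-binding and naive B cells, 5 of the 10 genes were called lower and none higher, where 10.4% of all 12892 tested genes were called lower. The 5 were H2-Ob, H2-Oa, Ciita, H2-DMb1 and H2-Aa, with log2 changes of -1.31 to -1.06. The other 5 were under the 2-fold limit, at log2 changes of -0.92 for H2-Eb1, -0.67 for Cd74, -0.64 for H2-Ab1, -0.59 for H2-DMa and -0.57 for H2-DMb2. All 10 had an adjusted p under 0.05, the largest being 0.000423, where 23.5% of tested genes were lower at that limit whatever their fold. In all 10 genes every NP-binding library lay below every naive library, as it did for 32.4% of tested genes. The median log2 change was -0.99 over the 10 genes and -0.16 over all tested genes. Scaling by trimmed means or by medians of ratios, which centre the typical gene near 0, left 3 of the 5 called, since H2-Aa and H2-DMb1 were then just short of 2-fold. The call of H2-Oa ended with the deposited log2 values (-1.27 ± 1.14, adjusted p = 0.395) and with a pseudocount of 0.1 (-1.30 ± 0.84, adjusted p = 0.244), where the change kept its size and the standard error rose from 0.14. Those fits weight all 9 libraries equally and pool their spread, including plasma cells, where H2-Oa was at 0, 0.172 and 2.27 TPM.

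Between plasma cells and naive B cells all 10 genes were called lower, where 26.3% of tested genes were. Between plasma cells and NP-binding B cells all 10 were called lower as well, where 22.3% of tested genes were. The median log2 change of the 10 was -4.81 against naive B cells and -3.69 against NP-binding B cells, beside -0.47 and -0.30 over all tested genes. In both comparisons every plasma cell library lay below every library of the other population for all 10 genes, as it did for 48.7% and 40.9% of tested genes. The 3 comparisons share libraries and are not independent of each other. Trimmed-mean scaling moved the median of all genes up by 0.51 and 0.38 in these comparisons, and all 10 calls held under it. Leaving out plasma cell replicate 3 kept all 10 calls in both comparisons, with shifts of at most 0.13 on the log2 scale apart from H2-Oa.

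Cd74, the invariant chain, kept the most. It was the most abundant listed transcript outside the Ig genes in every naive and every NP-binding library, at 30472, 31412 and 28504 TPM in naive B cells and 19041, 18616 and 19247 TPM in NP-binding B cells. Plasma cells held 5472, 5402 and 4815 TPM, which still placed it between rank 12 and rank 17. The 3 populations did not overlap. The log2 change from naive B cells was -2.53 ± 0.069 (SE) in plasma cells, a 5.79-fold lower level with an adjusted p of 5.03e-10, and from NP-binding B cells to plasma cells it was -1.86 ± 0.069 (adjusted p = 4.81e-09). Cd74 alone was 3.19% ± 0.156 of the summed TPM in naive B cells and 0.551% ± 0.0395 in plasma cells.

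The classical chains were the next most abundant. H2-Ab1, the I-A β chain, was at 12567, 12811 and 11472 TPM in naive B cells, 8820, 7395 and 7689 TPM in NP-binding B cells, and 917, 923 and 859 TPM in plasma cells. H2-Aa, the I-A α chain, was at 6895, 7150 and 6464 TPM in naive B cells, 3185, 3431 and 3272 TPM in NP-binding B cells, and 263, 264 and 270.2 TPM in plasma cells. Both genes thus fell in the same order of populations, with H2-Aa left at 48.2% ± 1.83 of its naive mean in NP-binding B cells and 3.89% ± 0.0539 in plasma cells, and H2-Ab1 at 64.9% ± 6.13 and 7.32% ± 0.288. Against naive B cells the plasma cell log2 change was -4.69 ± 0.074 for H2-Aa (adjusted p = 2.83e-11) and -3.78 ± 0.087 for H2-Ab1 (adjusted p = 1.65e-10).

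H2-Eb1, the I-E β chain, was at 4081, 4311 and 3814 TPM in naive B cells, 1869, 2418 and 2244 TPM in NP-binding B cells, and 248, 234 and 236 TPM in plasma cells. Its plasma cell log2 change was -4.09 ± 0.11 against naive B cells (adjusted p = 3.78e-10). NP-binding replicate 1 held the highest H2-Ab1 and the lowest H2-Eb1 of its group, so the spread among NP-binding libraries was not shared by all class II genes.

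The H2-DM genes fell in plasma cells too, with log2 changes beyond that of H2-Eb1. H2-DMa, the α chain, was at 806, 881 and 746 TPM in naive B cells, 564, 540.0 and 521 TPM in NP-binding B cells, and 42.6, 41.2 and 35.8 TPM in plasma cells. H2-DMb2, the more abundant of the neighbouring β chain genes, was at 1835, 1886 and 1825 TPM in naive B cells, 1283, 1149 and 1321 TPM in NP-binding B cells, and 44.3, 45.1 and 51.0 TPM in plasma cells. H2-DMb1, the other β chain gene, was at 334, 339 and 319.6 TPM in naive B cells, 181, 143 and 149 TPM in NP-binding B cells, and 6.97, 11.2 and 10.9 TPM in plasma cells. No population overlapped another in any of the 3 genes. Their plasma cell log2 changes against naive B cells were -4.34 ± 0.11 for H2-DMa, -5.30 ± 0.099 for H2-DMb2 and -5.06 ± 0.18 for H2-DMb1. H2-DMb1 and H2-DMb2 are near-copies: 31.4% of the 31-base words in H2-DMb1 transcripts also occur in H2-DMb2, and 29.7% of those in H2-DMb2 occur in H2-DMb1, so the split of reads between them is uncertain.

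The chains of H2-O parted in plasma cells. H2-Ob, the β chain, was at 837, 785 and 775 TPM in naive B cells, 343, 309 and 319.9 TPM in NP-binding B cells, and 20.3, 29.9 and 28.3 TPM in plasma cells. H2-Oa, its α chain partner, was at 482, 533 and 429.8 TPM in naive B cells, 202, 195 and 188 TPM in NP-binding B cells, and 0, 0.172 and 2.27 TPM in plasma cells. In NP-binding B cells the chains stood at a like share of their naive means, 40.6% ± 2.21 for H2-Ob and 40.5% ± 1.48 for H2-Oa, whereas in plasma cells H2-Ob kept 3.27% ± 0.644 and H2-Oa almost nothing. The plasma cell values of H2-Oa rest on 0, 2.96 and 37.7 estimated reads. A count of 0 in replicate 1 allows up to 3 reads, or 0.179 TPM, by counting error alone, and replicate 2 lies at that limit.

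Replicate 3, the library with liver and macrophage transcripts, therefore sets the plasma cell mean of H2-Oa, and the part those cells have in it was not tested. The fitted log2 change of H2-Oa against naive B cells was -8.95 ± 0.44 with all libraries (adjusted p = 3.35e-08) and -9.70 without plasma cell replicate 3 (adjusted p = 3.40e-08), and both depend on the offset added to values near 0. H2-Ob moved from -4.93 to -4.99 when that library was left out. H2-Oa transcripts share 18.3% of their 31-base words with the antisense gene BC051537, which overlaps it, and without strand in the library kit reads of that pair cannot be told apart.

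Ciita, the transactivator, had the largest fitted fall in plasma cells after H2-Oa. It was at 186, 197 and 194 TPM in naive B cells, 88.3, 79.5 and 78.1 TPM in NP-binding B cells, and 0.424, 0.455 and 0.747 TPM in plasma cells. The plasma cell values rest on 42.1, 46.3 and 73.4 estimated reads, against 23806 to 28155 in naive B cells, and are above the 3-read limit of 0.0295 to 0.0305 TPM. NP-binding B cells kept 42.6% ± 2.88 of the naive mean, a log2 change of -1.24 ± 0.091 (adjusted p = 5.05e-06). From naive B cells to plasma cells the log2 change was -7.55 ± 0.25, or 188-fold lower on the log2(TPM + 0.5) scale (adjusted p = 1.45e-09), and from NP-binding B cells it was -6.32 ± 0.25 (adjusted p = 7.05e-09). Without plasma cell replicate 3, the highest of the 3, the change from naive B cells was -7.69. In the GRCm38 annotation Ciita lies at chr16:10480059-10528418 on the plus strand, apart from the class II gene cluster.

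The order of the levels per transcript length was nearly the same in the 3 populations. In naive B cells it ran Cd74, H2-Ab1, H2-Aa, H2-Eb1, H2-DMb2, H2-DMa, H2-Ob, H2-Oa, H2-DMb1 and Ciita, and only H2-DMa and H2-Ob overlapped as neighbours. NP-binding B cells had the same order with no overlap between neighbours. In plasma cells H2-DMb1 passed H2-Oa, and H2-Oa and Ciita at the bottom overlapped. The scale itself widened: Cd74 exceeded H2-Ab1 without overlap everywhere, but H2-Ab1 ranked 3 or 4 among listed genes in naive libraries and 189 to 207 in plasma cells.

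Ratios between partners were compared next. Ratios of TPM within a library do not depend on how libraries are scaled to each other. They were compared by a two-sided exact permutation test whose smallest possible p with 3 libraries against 3 is 0.1. Of 15 such tests, 13 reached 0.1, each 0.115 after Benjamini-Hochberg adjustment, so no ratio could pass a 0.05 threshold by this test, and the statements here rest on whether the libraries overlapped.

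Cd74 per classical chain transcript (H2-Aa, H2-Ab1 and H2-Eb1 summed) was 1.29, 1.29 and 1.31 in naive B cells, 1.37, 1.41 and 1.46 in NP-binding B cells, and 3.83, 3.80 and 3.53 in plasma cells. Invariant chain transcripts thus stood 2.86-fold higher per classical chain in plasma cells than in naive B cells, without overlap. H2-Aa per H2-Ab1, the chains of the same I-A molecule, was 0.557 ± 0.00748 in naive B cells, 0.417 ± 0.0520 in NP-binding B cells and 0.296 ± 0.0160 in plasma cells (SD, n = 3), again without overlap between populations.

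H2-O per H2-DM, the inhibitor over its target, was 0.443, 0.424 and 0.417 in naive B cells, 0.269, 0.275 and 0.255 in NP-binding B cells, and 0.216, 0.308 and 0.313 in plasma cells. It was lower in both antigen-specific populations than in naive B cells without overlap, and plasma cells and NP-binding B cells overlapped (exact permutation p = 1). In plasma cells nearly all of the H2-O sum was H2-Ob. Ciita per classical chain was 0.00832 ± 0.000547 in naive B cells, 0.00609 ± 0.000239 in NP-binding B cells and 0.000388 ± 0.000138 in plasma cells, 22.3-fold lower in plasma cells than in naive B cells. That log2 difference of -4.48 was -3.50 with 0.5 TPM added to each gene before the ratio, since Ciita in plasma cells is near that offset. H2-DMb2 per H2-DMb1 was 5.59 ± 0.111 in naive B cells, 7.998 ± 0.871 in NP-binding B cells and 5.02 ± 1.21 in plasma cells, with overlap between plasma cells and naive B cells (exact permutation p = 0.4). Without plasma cell replicate 3 the log2 ratio differences moved by at most 0.28, and the H2-O to H2-DM difference between plasma cells and NP-binding B cells, which overlapped, changed sign.

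**Figure D2:**
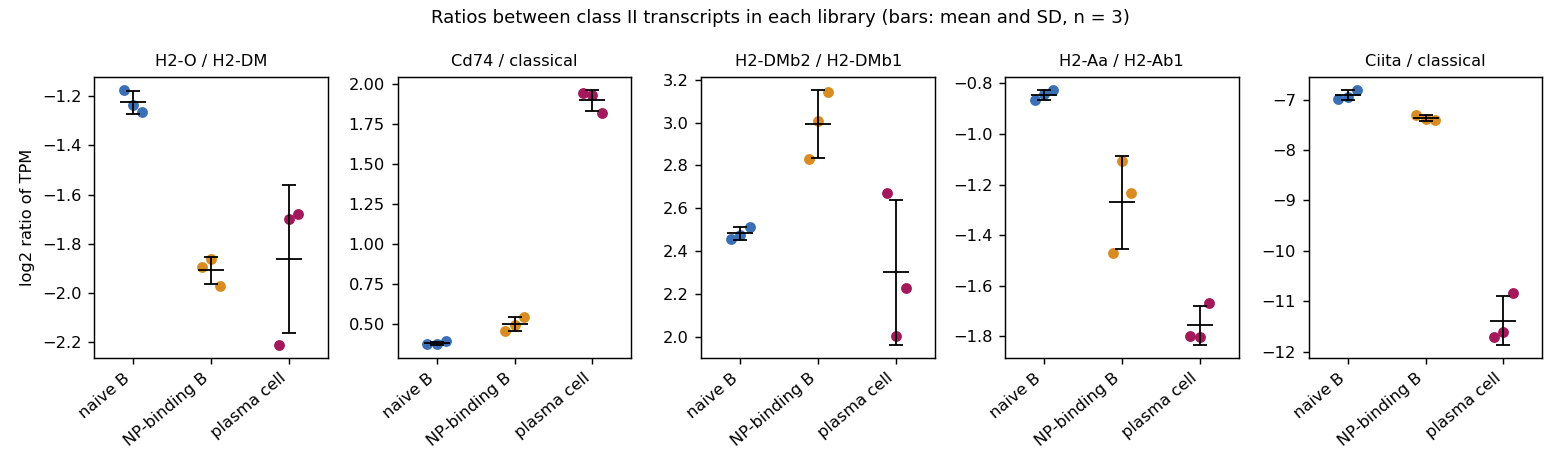
Log2 ratios of TPM within each library, with points for libraries and black bars for the mean and SD of 3 libraries; classical is the sum of H2-Aa, H2-Ab1 and H2-Eb1, and the axes differ between panels. Cd74 per classical chain is highest and Ciita per classical chain lowest in plasma cells, while the H2-O to H2-DM ratio of plasma cells spreads across that of NP-binding B cells.

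The 7 B cell markers spanned the range of the class II genes in plasma cells. Fcer2a (CD23) and Cd22, receptors of mature B cells, were left at 0.163% and 0.441% of their naive means in plasma cells, and Pax5, the B cell identity factor, at 0.839%. Every class II gene but Ciita and H2-Oa was left at a larger share than these 3 markers. Cr2, a complement receptor, was left at 3.35%, just above H2-Ob at 3.27%, H2-DMb1 at 2.93% and H2-DMb2 at 2.53%. Ms4a1 (CD20) was left at 12.8% and Cd79a, a signalling chain of the antigen receptor, at 13.7%, which are above all of the class II genes except Cd74. Cd79b, the partner chain of Cd79a, was left at 30.8%, above Cd74 at 17.4%. In NP-binding B cells the 10 class II genes stood at 40.5% to 67.7% of naive. Cr2 at 47.2%, Pax5 at 61.6% and Cd79a at 64.0% lay in that range, Cd22 at 69.5% and Cd79b at 73.4% just above it, Fcer2a at 25.0% below it, and Ms4a1 at 148% was the only marker of the 7 above its naive level.

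**Figure D3:**
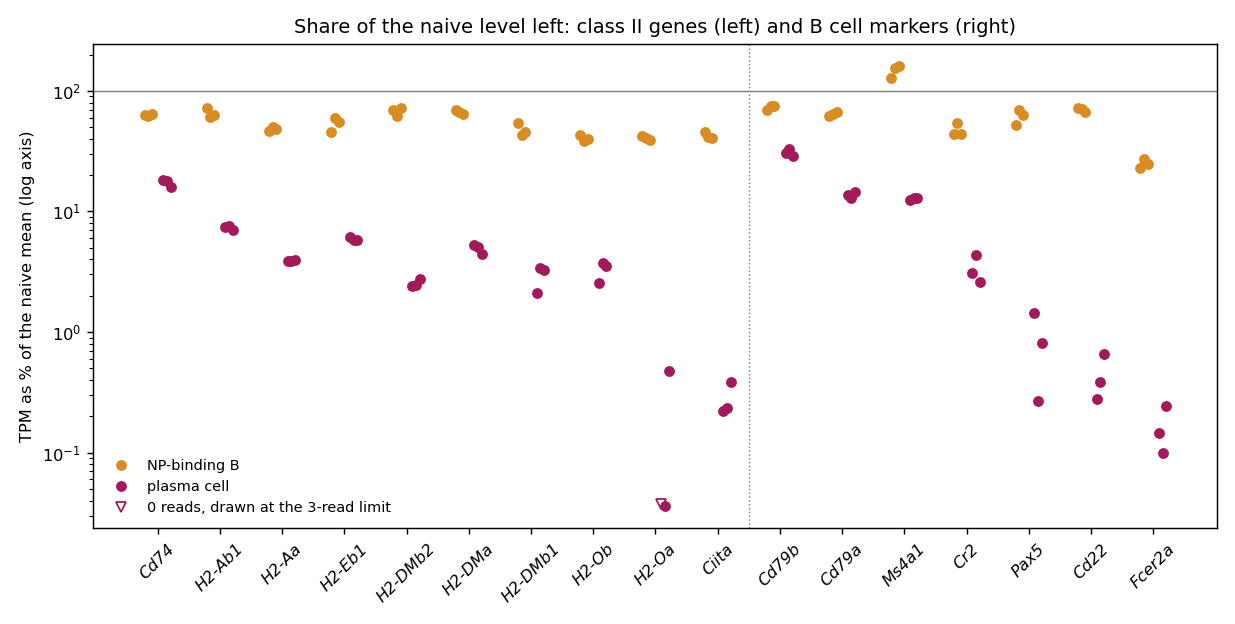
Level in NP-binding B cells and plasma cells as a percentage of the naive mean on a log axis, for the class II genes at the left and 7 B cell markers at the right of the dotted line; points are libraries, and the open triangle is a library with 0 reads drawn at its 3-read limit. In plasma cells Cd74 sits at 17.4% on average, most class II genes between 2.53% and 7.32%, and H2-Oa and Ciita beside Cd22 and Fcer2a near the bottom.

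Dendritic cells and macrophages also carry class II, and the gates used no dendritic cell marker. Of 9 dendritic cell markers, Clec9a stayed under 1 TPM in all 9 libraries and Itgax was at most 1.16 TPM. Their sum was 282 to 339 TPM in naive B cells, 96.8 to 112 TPM in NP-binding B cells and 7.97 to 12.2 TPM in plasma cells, and in both B cell populations it was mostly Ccr7, which B cells use as well. Flt3 went the other way between the B cell populations, from 1.76, 2.38 and 2.32 TPM in naive B cells to 19.4, 15.8 and 17.8 TPM in NP-binding B cells (log2 change 2.77 ± 0.21, adjusted p = 5.34e-06). The 8 macrophage markers summed to 10.2 to 10.9 TPM in naive B cells and 53.6 to 71.5 TPM in NP-binding B cells, where Cd68 made up most and C1qa, C1qb and C1qc stayed under 1 TPM. The part of such cells in the class II values was not tested.

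Class II genes share a promoter plan in which an X box, bound by RFX and CREB, stands a fixed distance upstream of a Y box, bound by NF-Y, and Ciita docks on the whole. RefSeq promoter windows of 300 bases around the start (GRCm38.p6) were read for 7 of the 10 genes, and not for H2-Ab1, Cd74 or Ciita. Those of H2-Aa, H2-Eb1, H2-DMb1, H2-DMb2, H2-Oa and H2-Ob contained AAC, a gap of 23 to 26 bases and TGATTGG on the gene strand. The letters were chosen after these promoters had been read. The 2 windows of H2-DMa contained neither the pair nor TGATTGG. Of 32851 windows of the same length, 0.189% held the pair on the gene strand, 0.460% held it on either strand, and 7.82% held TGATTGG on either strand. H2-Ab1, Cd74 and Ciita were not among the genes with the pair on either strand, and whether each had a window in that search is not known here. The stretch around the pair is shown for 5 genes, because they range from 5.88% to 0.169% of the naive level in plasma cells and all carry the pair; each runs 5′ to 3′ on the gene strand, with AAC at the X box end and TGATTGG of the Y box in capitals.
H2-Eb1: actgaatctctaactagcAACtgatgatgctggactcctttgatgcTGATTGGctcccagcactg
H2-Aa: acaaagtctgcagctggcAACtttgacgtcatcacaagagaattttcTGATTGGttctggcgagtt
H2-Ob: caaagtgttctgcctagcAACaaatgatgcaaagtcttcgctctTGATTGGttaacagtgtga
H2-DMb2: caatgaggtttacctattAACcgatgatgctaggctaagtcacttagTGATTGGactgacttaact
H2-Oa: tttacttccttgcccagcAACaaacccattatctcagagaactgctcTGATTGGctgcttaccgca

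These stretches lie at chr17:34305760-34305824 (plus strand) for H2-Eb1, chr17:34287855-34287920 (minus strand) for H2-Aa, chr17:34238802-34238864 (plus strand) for H2-Ob, chr17:34145110-34145175 (plus strand) for H2-DMb2 and chr17:34092287-34092352 (plus strand) for H2-Oa. The Y box letters began 61, 50, 59, 92 and 45 bases before the RefSeq start, in that order. The gap was 25 bases in H2-Eb1, 23 in H2-Ob and 26 in the other 3. GENCODE places a start of H2-DMb2 further upstream and 1 of H2-Oa inside the stretch shown. Beyond the class II genes, 56 tested genes had the pair on either strand, of which 13 (23.2%) were called lower and 10 (17.9%) higher in plasma cells than in naive B cells, beside 26.3% and 11.4% of all tested genes. A match describes letters and does not show binding.

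Of 31 other genes of the pathway, 29 were tested. Between NP-binding and naive B cells 5 were called lower and 1 higher, where 10.4% of all tested genes were lower and 8.13% higher. Between plasma cells and naive B cells 13 were lower and 5 higher, where 26.3% of all tested genes were lower and 11.4% higher. Between plasma cells and NP-binding B cells 12 were lower and 6 higher, beside 22.3% and 9.93% of all tested genes. With Ig genes kept, the higher calls of Ctsb, Ctsd, Ctsl and Sppl2a ended in this last comparison. Those of Irf4, Ctsd and Ctsz ended between plasma cells and naive B cells. Without plasma cell replicate 3, 35 of these 36 plasma cell calls held. That of Rfxap ended, Rfxap and Ctsl moved by more than 1.5-fold, and the other changes moved by at most 0.39 on the log2 scale.

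Among the 7 factors that bind class II promoters, none was called between NP-binding and naive B cells, where 10.4% of all tested genes were lower and 8.13% higher. Rfx5 was just under 2-fold lower there, at a log2 change of -0.99 (adjusted p = 0.00163), and was called lower without naive replicate 1 (-1.17, adjusted p = 0.000619) or without NP-binding replicate 3 (-1.09, adjusted p = 0.00346). This gene, which encodes the DNA-binding subunit of the RFX complex, was at 25.1, 37.5 and 36.1 TPM in naive B cells, 15.2, 14.9 and 18.7 TPM in NP-binding B cells, and 5.12, 5.73 and 5.76 TPM in plasma cells. It was the one RFX subunit called lower in plasma cells than in naive B cells, its log2 change being -2.45 ± 0.22 (adjusted p = 3.45e-06). Rfxank, another RFX subunit, was at 18.5 ± 1.37, 12.0 ± 0.948 and 11.9 ± 0.824 TPM in the 3 populations. It was lower than in naive B cells in NP-binding B cells (log2 change -0.61, adjusted p = 0.00718) and in plasma cells (-0.62, adjusted p = 0.00365), both under 2-fold, beside medians of -0.16 and -0.47 over all tested genes. Rfxap, the remaining subunit, was at 46.3 ± 10.1, 71.6 ± 19.6 and 33.0 ± 18.9 TPM. It was called lower between plasma cells and NP-binding B cells, with a log2 change of -1.28, and this call ended in 6 of 21 alternatives. The change was -0.69 without plasma cell replicate 3, and the adjusted p was 0.0615 without NP-binding replicate 1. Under the 3 other scalings the change was -0.90 to -0.86 (adjusted p of 0.0706 to 0.0735). With no filter on low values the adjusted p was 0.102. Nfya, an NF-Y subunit, and Creb1 were called lower in plasma cells than in naive B cells at log2 changes of -1.05 and -1.06, and both calls ended under scaling by trimmed means (-0.55 for each). That of Nfya also ended without naive replicate 3 (-0.89) or plasma cell replicate 1 (-0.91), and that of Creb1 without naive replicate 3 (-0.99) or plasma cell replicate 2 (-0.97).

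Activators and repressors of Ciita in the B lineage were listed together. In NP-binding B cells Zbtb32, a repressor that acts with Blimp1 on Ciita, stood at 329.9, 300.3 and 315.5 TPM, against 2.73, 2.09 and 3.47 TPM in naive B cells. Its 97.5-fold rise (log2 change 6.61 ± 0.19, adjusted p = 2.79e-08) was not seen in plasma cells, which held 2.78, 2.19 and 2.58 TPM. Bcl6 and Irf4 were called lower in NP-binding B cells, at log2 changes of -1.40 and -1.20. Without NP-binding replicate 1 the change of Irf4 was -0.92 and under 2-fold.

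In plasma cells 5 of the 8 regulators of Ciita were called lower than in naive B cells and 2, Prdm1 and Irf4, higher, beside 26.3% and 11.4% of all tested genes. Prdm1, which encodes Blimp1 and marks the gate itself, was at 1.97, 2.30 and 3.24 TPM in naive B cells, 3.09, 3.94 and 7.24 TPM in NP-binding B cells, and 99.8, 116 and 78.4 TPM in plasma cells. Because the sort selected reporter-positive cells, its rise checks the gate and is no finding. Pax5, which supports Ciita transcription in B cells, was at 81.9 ± 8.21 TPM in naive B cells and 50.4 ± 7.02 TPM in NP-binding B cells, and at 1.18, 0.219 and 0.665 TPM in plasma cells (log2 change -6.20 ± 0.34 from naive B cells, adjusted p = 6.93e-08). Irf8, an interferon regulatory factor, went from 479 ± 26.3 TPM in naive B cells and 376 ± 36.2 TPM in NP-binding B cells to 15.9 ± 6.52 TPM in plasma cells.

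Spi1, which encodes PU.1 and partners Irf4 and Irf8, fell less, from 196 ± 8.20 TPM in naive B cells to 54.1 ± 4.16 TPM in plasma cells (log2 change -1.86 ± 0.16, adjusted p = 2.29e-06). Ebf1, an early B cell factor, was at 162 ± 3.61 TPM in naive B cells, 159 ± 26.3 TPM in NP-binding B cells and 6.77 ± 0.390 TPM in plasma cells. Irf4, whose level rises as plasma cells form, was at 112 ± 22.6 TPM in plasma cells against 25.1 ± 3.01 TPM in naive B cells (log2 change 2.12 ± 0.21, adjusted p = 7.01e-06). In the table that keeps Ig genes this change was 0.91 and under 2-fold.

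**Figure D4:**
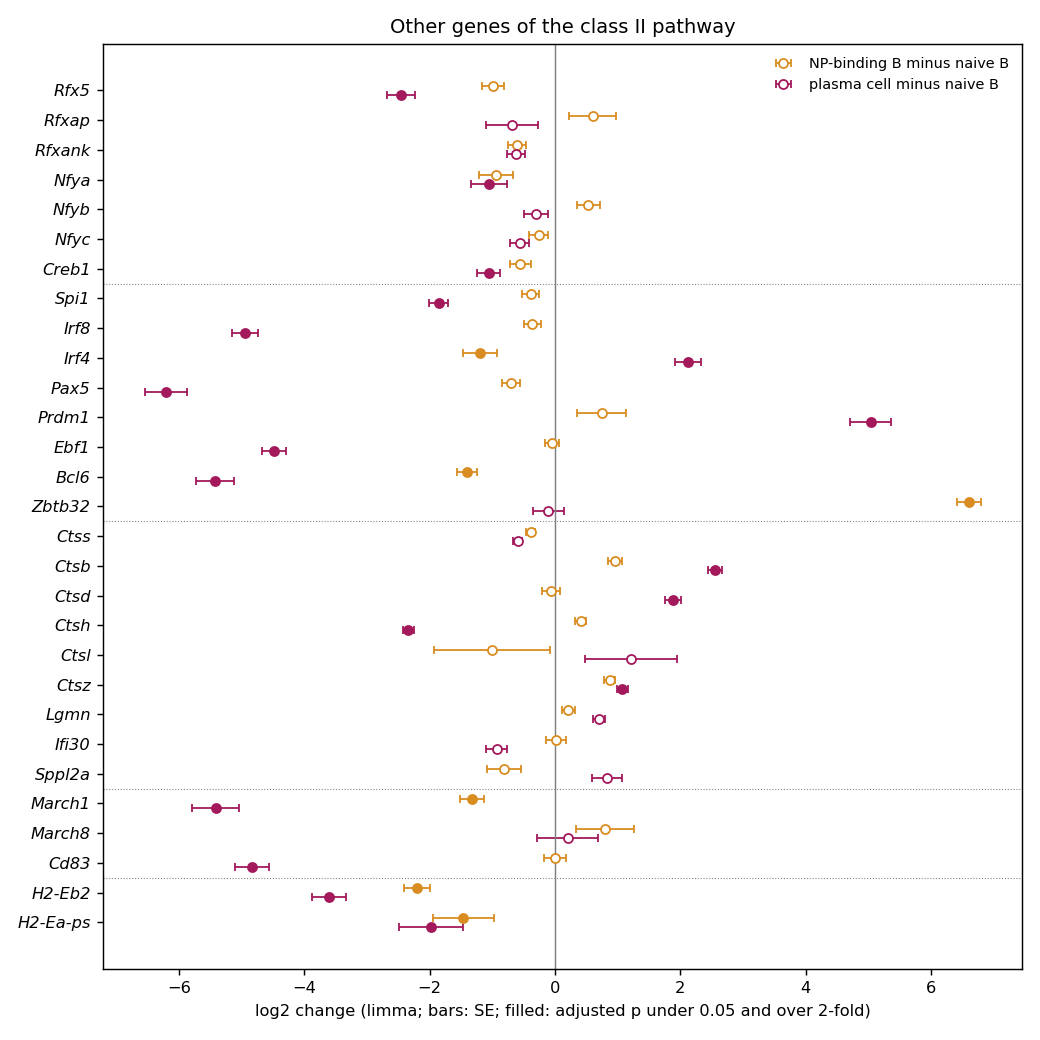
Log2 changes against naive B cells of the 29 other tested pathway genes, in NP-binding B cells and in plasma cells; bars are standard errors, filled points passed adjusted p under 0.05 and 2-fold, and dotted lines separate promoter-bound factors, regulators of Ciita, lysosomal enzymes, surface turnover and other class II loci. Most filled plasma cell points lie below 0, while Prdm1, Irf4, Ctsb, Ctsd and Ctsz lie above it.

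Of the 9 lysosomal enzymes, 1 was called lower and 3 higher in plasma cells than in naive B cells, beside 26.3% and 11.4% of all tested genes. Ctss, the protease that trims the invariant chain in B cells, was at 775, 805 and 768 TPM in naive B cells, 591, 586 and 627 TPM in NP-binding B cells, and 527, 540.0 and 496 TPM in plasma cells, lower than in naive B cells but under 2-fold (log2 change -0.59, adjusted p = 4.00e-05, beside a median of -0.47 over all tested genes). Ifi30, a thiol reductase of the same compartment, was at 199 ± 15.5, 205 ± 47.2 and 105 ± 13.1 TPM in the 3 populations, with a log2 change of -0.93 between plasma cells and naive B cells that was also under 2-fold (adjusted p = 0.000603). Ctsb, a cysteine protease, rose in plasma cells by a log2 change of 2.55 ± 0.10 against naive B cells (adjusted p = 7.71e-09), and the aspartic protease Ctsd by 1.88 ± 0.13 (adjusted p = 3.64e-07), which was 0.67 and under 2-fold in the table that keeps Ig genes. Ctsz rose by 1.07 ± 0.088, a call that turned to -0.15 in the table that keeps Ig genes and was 0.64, under 2-fold, with quantile normalization. Ctsh, an aminopeptidase, was the enzyme called lower, going from 827 ± 51.7 TPM in naive B cells and 1106 ± 67.1 TPM in NP-binding B cells to 164 ± 11.3 TPM in plasma cells.

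Against NP-binding B cells, 1 of these enzymes was called lower and 4 higher in plasma cells, beside 22.3% and 9.93% of all tested genes. The 4 were Ctsb, Ctsd, Ctsl and Sppl2a, while Ctsz was not called (log2 change 0.20, adjusted p = 0.0693). Ctsb and Ctsd changed by 1.60 and 1.95, which became 0.39 and 0.74, under 2-fold, with Ig genes kept. Ctsl, a cysteine protease, was at 3.39, 5.12 and 34.0 TPM in plasma cells against 1.36, 0.712 and 2.85 TPM in NP-binding B cells, and its log2 change of 2.22 (adjusted p = 0.0465) was 1.26 without replicate 3, the library with liver transcripts (adjusted p = 0.0189). The call ended in 9 of 20 alternatives, among them leaving out any single naive or NP-binding library. Sppl2a, the membrane protease that clears the invariant chain remnant, was at 74.7, 78.3 and 68.2 TPM against 13.95, 36.6 and 24.5 TPM, without overlap (log2 change 1.64 ± 0.26, adjusted p = 0.000287). In the table that keeps Ig genes the Sppl2a change was 0.45 and was not called.

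March1, a ubiquitin ligase that drives class II from the surface, and Cd83, which counters it, both fell in plasma cells. March1 was at 55.3, 61.0 and 82.3 TPM in naive B cells, 23.8, 29.2 and 25.0 TPM in NP-binding B cells, and 1.09, 0.380 and 2.15 TPM in plasma cells. Cd83 was at 367, 366 and 390.5 TPM in naive B cells, 522, 284 and 363 TPM in NP-binding B cells, and 12.2, 11.6 and 14.4 TPM in plasma cells. In NP-binding B cells, then, March1 was lower than in naive B cells (log2 change -1.33 ± 0.20, adjusted p = 0.000430, and 0.0543 with the deposited log2 values) while the Cd83 libraries overlapped. March8, a related ligase, was at 0.107 to 1.74 TPM over the 9 libraries and was not called.

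H2-Eb2, a class II β chain gene beside H2-Eb1, fell already in NP-binding B cells. It was at 25.4, 32.3 and 31.4 TPM in naive B cells, 4.15, 6.90 and 7.73 TPM in NP-binding B cells, and 1.79, 2.00 and 2.16 TPM in plasma cells. The log2 change between NP-binding and naive B cells was -2.20 ± 0.21 (adjusted p = 2.58e-05), larger in size than that of any of the 10 genes, with 1.58% of its 31-base words shared with other genes. H2-Ea-ps, the defective I-E α chain locus, was at most 3.11 TPM and was called lower in NP-binding B cells (log2 change -1.46, adjusted p = 0.0320), a call that ended in 9 of 20 alternatives, among them leaving out naive replicate 1 or 2 or NP-binding replicate 2 or 3, where the adjusted p was 0.0660 to 0.118. H2-Pa and H2-Pb were under the filter on low values.

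The genes whose pattern over the 9 libraries was most like that of a class II gene were found by the root mean square difference of centred log2(TPM + 1) among 7240 other tested genes with a mean of at least 10 TPM. For Ciita they were Cxcr5, Spib and Pglyrp1, at differences of 0.223, 0.360 and 0.374. Cxcr5, the receptor that guides B cells to follicles, was at 243 ± 11.1, 86.9 ± 2.33 and 0.688 ± 0.555 TPM in naive B cells, NP-binding B cells and plasma cells. For Cd74 they were Trim12a, Gimap1 and Sfxn3, at differences of 0.0457, 0.0873 and 0.0956, and Trim12a was at 128 ± 3.34, 80.6 ± 2.08 and 21.6 ± 2.01 TPM. For H2-Oa they were Fcer2a, Cd22 and Ltb, at differences of 0.428, 0.442 and 0.454. All of these genes separate the same 3 populations, so their likeness describes the order and size of the steps and nothing more.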

How the data were processed

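The authors sorted cells into TRIZOL, prepared cDNA with a SMARTer v4 kit and Nextera XT, and computed transcript abundance by kallisto pseudoalignment; mm10 is the build in the submitters' processing notes. The deposited files hold TPM per gene symbol and log2 values normalized by voom, each with and without Ig genes. TPM keeps no depth, and estimated reads were recovered from the deposited log2 values, whose offset is 0.5; only 4.41% lay within 0.01 of a whole number, so no count model was used.

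TPM without Ig genes were passed to voom and limma 3.58.1 (R 4.3.3), with 3 group means over all 9 libraries and no covariates; the study names the same tools, with these limits as its general ones and others for some of its plots. Testing kept genes that reached 1 TPM in 3 or more libraries, with Benjamini-Hochberg adjustment over all 12892, and a gene was called at adjusted p under 0.05 and a fold change over 2. Log2 changes are on the log2(TPM + 0.5) scale and understate those of low genes. Limits of 0 reads and p-values cover counting error and the spread between these libraries only. The code was tested on simulated data. The 10 genes and all lists were chosen with earlier results of these data known; the named genes were the 10, the regulators of Ciita, the RFX genes, Ctss, Ifi30, March1 and Cd83, any other listed pathway gene that was called, and the 3 genes most like Ciita, Cd74 and H2-Oa. March8, H2-Pa and H2-Pb are named to account for the list. Some listed marker genes are not reported here and are left out of the marker sums. Words of 31 bases and gene coordinates are from GENCODE vM21 (GRCm38). The transcript annotation used by kallisto is not given in the sources used here.

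Alternatives were the table with Ig genes, the deposited log2 values, estimated counts, other filters, pseudocounts of 0.1 and 1, 3 other scalings, a replicate block, only the libraries compared, and leaving out each library.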

Additional observations from a re-analysis of the deposited data

How the results depend on the processing

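All 10 genes were called lower in both plasma cell comparisons under every alternative run. Between NP-binding and naive B cells the count of 5 became 3 with trimmed-mean and 3 with median-of-ratios scaling (H2-Aa at -0.93 and -0.95, H2-DMb1 at -0.96 and -0.97), was 4 with quantile normalization, the deposited log2 values or a pseudocount of 0.1, and was 5 without any single library. The change of H2-Oa kept its size but had an adjusted p of 0.395 with the deposited log2 values and 0.244 with a pseudocount of 0.1, at standard errors of 1.14 and 0.84 against 0.14. These unweighted fits pool the spread of all libraries, including the plasma cell values of H2-Oa near 0. Quantile normalization set Cd74 to a change of 0 between NP-binding and naive B cells, by construction, since it ranks first in all 6 libraries. Ctsz turned to -0.15 between plasma cells and naive B cells in the table with Ig genes, whose plasma cell values are all lower by construction. The log2 H2-O to H2-DM ratio between plasma cells and NP-binding B cells, 0.05, turned to -0.0360 without plasma cell replicate 2 and -0.047 without replicate 3, and reached at most 0.22 without another library. It was 0.29 with the deposited log2 values, with which the same ratio between plasma cells and naive B cells was -0.40 in place of -0.64. Over 73 gene and comparison pairs, 1473 of 1529 alternative values stayed on the same side of the threshold in the same direction. These pairs were the 10 genes and Rfx5 in every comparison, and the other pathway genes only where the main fit called them. A new call of any other uncalled pathway gene was therefore not counted.

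The split of all calls moved with scaling: 1340 lower and 1048 higher between NP-binding and naive B cells became 985 and 1298 with trimmed means; 3397 and 1473 between plasma cells and naive B cells became 1794 and 2381 (7943 and 551 with Ig genes kept); and 2870 and 1280 between plasma cells and NP-binding B cells became 1793 and 2014 (7355 and 420). Deviations of same-numbered libraries correlated at -0.07 to 0.07, so the numbers were not shown to pair them. With the replicate block the counts were 5, 10 and 10, and all ratio changes kept their size. Depth limits H2-Oa in plasma cells, at 0 to 37.7 reads.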
